A study of Parasteatoda tepidariorum with 2 samples.

Results

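The 150 genes described here had the largest rise in level between nuclei of late stage-5 embryos and nuclei of stage-7 embryos of the common house spider *Parasteatoda tepidariorum*. They were chosen from 8730 genes with at least 500 molecules in the stage-7 nuclei, by the ratio of stage-7 to late stage-5 molecules per 10000 molecules, with 0.01 added to both levels. Before the choice, 12 patterning genes that passed the minimum, among them *Pt-caudal*, *Pt-twist* and *Pt-six3-1*, were set aside. The ratio of each gene is therefore the reason for its place in the set, and it is given as a description, with no test.

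Stage-7_nucleus is 1 library of 6239 nuclei from 20 whole wild-type embryos, and stage-7_cell is 1 library of 865 dissociated cells from 15 whole wild-type embryos. Both were kept at 25 ˚C to stage 7, when the germ band forms and stripes of gene expression appear along the anteroposterior (AP) axis. Late stage-5_nucleus holds 4820 nuclei of germ-disc embryos, came from an earlier study and was processed again by the authors. Each stage has 1 library of nuclei, so stage, embryos and library cannot be told apart, and no error between embryos could be given. The levels carry exact 95% Poisson intervals and the percentages exact 95% binomial (Clopper-Pearson) intervals, both for counting error only.

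Between these stages the radially patterned germ disc becomes a band with a head end and a tail end. Its ectoderm is divided by transcription factors, among them the homeobox genes, and by secreted signals such as Wnt ligands, while mesoderm and endoderm lie below it and extraembryonic cells at its edge. Regulators of this kind are expressed in restricted regions, whereas genes of general use, for protein folding, protein breakdown, splicing and respiration, are active in nearly every cell.

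The stage-7 nuclei had 68754756 molecules, with a median of 10452 per nucleus (range 4442 to 19993). The cells had 8640142 molecules (median 9159), and the late stage-5 nuclei 26804290 (median 5413). The barcodes that libraries shared numbered 33 for the 2 nucleus libraries, 6 for stage-7_nucleus and stage-7_cell, and 5 for stage-7_cell and late stage-5_nucleus. RefSeq lists 131 of the 150 genes as protein coding, 9 as lncRNA and 1 as misc_RNA, and 9 had no entry. The products used here were read from the study's supplementary tables, which named 63 of the 150 and 1286 of all genes tested. Of these 63, 46 had an informative product and 17 were uncharacterized, and the other 87 are given by their identifiers alone. The study itself named 4 of the genes, *Pt-Notum*, *Pt-wnt16*, *Pt-fd102C* and *Pt-tlx*.

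The ratio ran between 4.98 and 29.4 with a median of 6.25, against a median of 0.764 over all 8730 genes. It was 10 or more for 17 genes, between 6 and 10 for 67 and below 6 for 66. A ratio of 4 or more was found for 267 genes, 3.06% of those tested, and all 150 had such a ratio by construction. The last genes inside the set were *LOC107456835* and *LOC107452817* (5.02 each), *LOC107457318* (5.01), *LOC107436657* (4.99) and *LOC107454868*, a mitochondrial 39S ribosomal protein L20 (4.98). The first ones outside were *LOC107437789* and *LOC107449537* (4.97 each), *LOC107449675* (4.96), *LOC107450007* (4.94) and *LOC107449083* (4.93). The edge of the set thus fell within a run of nearly equal ratios.

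The median level of the 150 genes was 1.52 molecules per 10000 in stage-7 nuclei, 1.64 in stage-7 cells and 0.203 in late stage-5 nuclei. Over all genes tested the medians were 0.417 in stage-7 nuclei, 0.241 in stage-7 cells and 0.492 in late stage-5 nuclei. Together the 150 genes took 10.0% of all molecules of the stage-7 nuclei and 14.9% of those of the stage-7 cells, against 1.61% in late stage-5 nuclei. A level counts molecules and was not divided by transcript length. The late stage-5 library held fewer than 50 molecules of 29 of the genes, and the lowest count was 2.

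**Figure D1:**
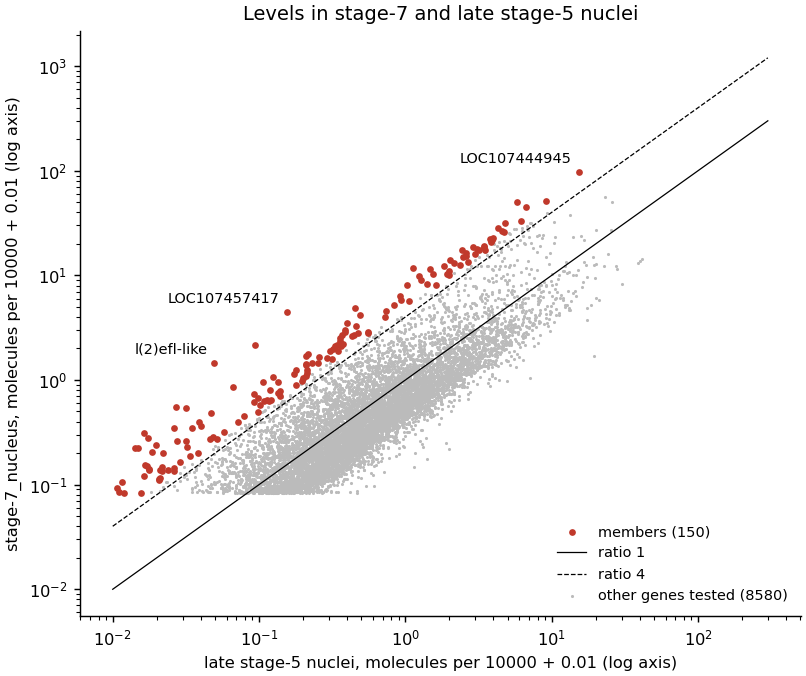
Level of each of the 150 genes in stage-7 nuclei (vertical axis) and late stage-5 nuclei (horizontal axis), in molecules per 10000 plus 0.01 on log axes, as red points, with the other genes tested in grey and lines at ratios of 1 and 4. The 150 genes lie above the rest because the ratio chose them, and their stage-7 levels cover 0.0727 to 96.4.

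Because the stage-7 nuclei were sequenced more deeply, the percentage of nuclei with a molecule was compared after each nucleus was thinned to 2000 molecules. All 150 genes were then found in a larger percentage of stage-7 than of late stage-5 nuclei, as were 37% of all genes tested. For all 150 the stage-7 interval lay wholly above the late stage-5 one, as it did for 2393 of the 8730 genes tested. The median percentage of the 150 genes was 23.4% of stage-7 nuclei, against 3.68% of late stage-5 nuclei. For the other genes tested the medians were 7.63% of stage-7 and 8.73% of late stage-5 nuclei. In nuclei with at least 1 molecule of a gene, the median number of molecules was 1.33 at stage 7 and 1.09 at late stage 5 for the 150 genes, a smaller difference than that in the percentage of nuclei. These values come from the same 2 libraries as the ratio and are no separate support for it.

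Among the 15 highest ratios were 3 genes of the small heat shock protein class and 1 of the Hsp70 class. *LOC107436795*, a protein lethal(2)essential for life-like, had the highest ratio of all. Proteins of this family are small chaperones that hold unfolded proteins in solution. It had 9961 molecules in stage-7 nuclei, a level of 1.45 (1.42 to 1.48) per 10000, against 106 molecules and 0.0395 (0.0324 to 0.0478) in late stage-5 nuclei, a ratio of 29.4. A second gene of the family, *LOC107447382* (lethal(2)essential for life), had a level of 0.524 (0.507 to 0.542) in stage-7 nuclei, against 0.0216 (0.0164 to 0.0280) at late stage 5. The alpha-crystallin A chain *LOC107436797*, of the same class of chaperones, had 0.841 (0.820 to 0.863) at stage 7, against 0.0563 (0.0477 to 0.0661) at late stage 5. *LOC107453144* is a major heat shock 70 kDa protein, of the class of ATP-driven chaperones made in quantity under stress. Its level was 0.538 (0.520 to 0.555) at stage 7, against 0.0172 (0.0126 to 0.0229) at late stage 5.

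All 4 chaperone genes were higher again in the stage-7 cells, at 2.28 for *LOC107436795*, 3.17 for *LOC107447382*, 1.72 for *LOC107436797* and 0.729 for *LOC107453144*. Summed, they stood at 3.35 molecules per 10000 in stage-7 nuclei and 7.90 in stage-7 cells, against 0.135 in late stage-5 nuclei. At least 1 of their molecules was present in 88.6% of the stage-7 nuclei and 98.8% of the stage-7 cells, against 6.66% of late stage-5 nuclei. At least 5 were present in 30.7% of stage-7 nuclei and in 69.7% of cells, whereas the most in any late stage-5 nucleus was 4. After thinning, *LOC107436795* was found in 24.0% (23.0 to 25.1) of stage-7 nuclei against 0.726% (0.506 to 1.01) of late stage-5 nuclei. The transcripts were thus spread over most stage-7 nuclei and were not held by a small group of them, although depth differs between the libraries in the percentages before thinning. *LOC107436795* and *LOC107436797* are next to each other in the RefSeq gene order.

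The rest of the chaperone list did not show so large a difference. Of 13 genes for heat shock proteins, a heat shock factor and prefoldins, 5 had a ratio of 4 or more, 7 lay between 1 and 4 and 1 below 1, with a median of 2.96. The fifth was prefoldin subunit 6 (*LOC107457027*, 5.77), part of a complex that hands new actin and tubulin to a chaperonin. BiP (*LOC107438838*), the Hsp70 of the endoplasmic reticulum, had a ratio of 3.65, and heat shock 70 kDa protein 4 (*LOC107438136*) one of 1.66. Heat shock factor protein 1 (*LOC107448491*), which in other animals switches on heat shock genes, was lower at stage 7, with 1.25 molecules per 10000 in stage-7 nuclei and 0.455 in stage-7 cells, against 2.06 in late stage-5 nuclei. The cells and nuclei were taken from the embryos by different treatments, cells with a protease, and no library holds embryos that were not handled in this way. The part of handling in the chaperone levels was not tested.

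Further genes of the first 15 had no known function here. *LOC107457417*, an lncRNA that lies next to the head gene *Pt-otd* in the RefSeq order, had 30824 molecules and a level of 4.48 (4.43 to 4.53) in stage-7 nuclei, against 391 molecules and 0.146 (0.132 to 0.161) in late stage-5 nuclei. *Pt-otd* itself had 5.46 molecules per 10000 in cluster 5 of the stage-7 nuclei, against 0.987 over all of them, whereas the lncRNA was nearly even over the clusters, with at most 1.37 times its overall level in any cluster. Its level was 12.2 in stage-7 cells. Uncharacterized *LOC110283236* had 2.14 (2.11 to 2.18) at stage 7, against 0.0843 (0.0737 to 0.0961) at late stage 5. *LOC107436794*, *LOC107438261*, *LOC107446381*, *LOC107441912* and *LOC107447021* had ratios of 19.1, 12.1, 11.0, 10.8 and 10.5. *LOC107452633* had a ratio of 15.2 but only 6 molecules in stage-7 cells, a level of 0.00694 (0.00255 to 0.0151), against 0.216 in stage-7 nuclei.

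The most abundant genes of the set were much less extreme in ratio and made up most of its molecules. The 35 genes with a stage-7 level of 10 or more, of 147 such genes among all tested, took 8.07% of all molecules of stage-7 nuclei and 12.2% of those of stage-7 cells, against 1.32% in late stage-5 nuclei. Of these 35, 33 had no product in the tables. *LOC107444945* stood first, with 96.4 (96.1 to 96.6) molecules per 10000 in stage-7 nuclei and 134 in stage-7 cells, against 15.4 (15.2 to 15.5) in late stage-5 nuclei. It was found in 84.3% of late stage-5 nuclei even after thinning, so that it was already widespread and its molecules per positive nucleus differed, 18.8 at stage 7 against 3.69 at late stage 5. *LOC107443814* followed with 51.5 in stage-7 nuclei, against 9.16 at late stage 5, and *LOC107440487* with 49.9, against 5.74.

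The named genes of this class were a nuclear localization sequence-binding protein (*LOC107454099*), with 45.2 at stage 7 against 6.68 at late stage 5, and a high mobility group protein HMG-I/HMG-Y (*LOC107441824*), with 32.9 against 6.19. HMG-I/HMG-Y proteins bind AT-rich DNA and are abundant in the chromatin of embryonic cells. The same 5 genes also had the highest levels of the set in the stage-7 cells, between 54.7 and 134. Over the 8 stretches of the AP axis described below, none of the 35 abundant genes exceeded 1.13 times its mean level. The median of their highest folds was 1.09, against 1.08 for the 112 other genes tested with a level of 10 or more. Evenness at this resolution was thus shared with other genes of such a level.

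Genes of general cell functions made up a large part of the named products. The lists that follow were written after the products had been read, so their counts describe the set and are no independent evidence. Of 8 proteins of the spliceosomal snRNPs, the particles that remove introns, 5 had a ratio of 4 or more and none was below 1, with a median of 5.46. These were Sm D1 (*LOC107441101*, 2.37 at stage 7 against 0.347 at late stage 5), protein F (*LOC107456459*, ratio 6.35), Sm D2 (*LOC107456256*, 5.89) and 2 genes annotated as Sm D3 (*LOC107448885*, 6.33, and *LOC107438325*, 5.03). Reads of the Sm D3 pair may have been split between the copies, so their separate values are uncertain. All 5 are Sm proteins, which form a ring on the snRNA. A further protein of the ring, B (*LOC107454658*), had a ratio of 2.77, and the U1 A and U5 helicase proteins had ratios of 1.79 and 1.65.

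Of 13 subunits of the 20S proteasome, the barrel that degrades ubiquitin-tagged proteins, 4 were in the set and none had a ratio below 1, with a median of 3.02. The 4 were alpha type-3 (*LOC107447863*, 6.38), alpha type-7 (*LOC107455005*, 5.90), beta type-2 (*LOC107455969*, 5.80) and alpha type-1 (*LOC107455137*, 5.60). The other 9 subunits lay between 1.80 and 3.79. All 13 were higher in stage-7 cells than in stage-7 nuclei.

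In the respiratory chain 9 of 16 genes had a ratio of 4 or more and none was below 1, with a median of 4.33. Cytochrome c oxidase subunit 4 (*LOC107452829*), of the complex that passes electrons to oxygen, had a ratio of 7.81, and subunit 5B (*LOC107449999*) had 2.85 molecules per 10000 at stage 7 against 0.376 at late stage 5. Cytochrome b-c1 subunit 8 (*LOC107441435*) had a ratio of 6.15, and the complex I subunits *LOC107454402* and *LOC107440262* had 5.91 and 5.76. Of 17 ribosomal proteins with a product, cytosolic and mitochondrial, 5 had a ratio of 4 or more and none was below 1, with a median of 2.40. Ribosomal protein genes without a product could not be counted, and 33 of the 35 most abundant members had no product. The median is therefore that of the named genes and not of the whole family. In these 4 lists every gene tested thus had a ratio above 1, against a median of 0.764 over all genes. The lists hold only genes with a product, 1286 of the 8730, so that median is of a wider set.

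Further members with products were histone H4 (*LOC107443685*, 3.28 at stage 7 against 0.450), of which other copies may take reads, and actin clone 403 (*LOC107443493*, 6.35 against 0.913), also of a family of near-identical genes. Innexin inx2-like (*LOC107449304*), which forms gap junctions between neighbouring cells, had 5.63 against 1.04. The product vitamin K-dependent protein C (*LOC107451660*), named after a serine protease of vertebrate blood, had 4.16 against 0.479. Of 7 genes on the list of channels, receptors and synaptic proteins 1 was a member, the GABA receptor-associated protein *LOC107444313*, which is known for its role in autophagy and is not a channel.

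Members of the developmental lists were few in number, but the set is itself only 1.72% of the genes tested. With the 12 patterning genes set aside beforehand, 0 of 6 Hox genes, 2 of 26 other homeobox and paired box genes, 3 of 61 other transcription factors, 2 of 10 Wnt pathway genes and 1 of 11 genes of the FGF, EGF and Eph pathways were members. None of 5 Hedgehog, 10 Notch, 6 BMP and TGF-beta and 35 adhesion and matrix genes was a member. The lists were matched by words in the product, so the counts leave out genes with other wording. Sal-like protein 1, big brother and the zinc finger and BTB gene *LOC107444341*, described below, are members but on none of these lists. A ratio below 1 was found for 17 of the homeobox and paired box genes, 43 of the other transcription factors and 4 of the Wnt pathway genes, against 65.5% of all genes tested. The median ratios of these lists ran between 0.554 for Hedgehog and 2.45 for Wnt genes. The enzymes and transporters had 6 of 120 members and a median of 1.24, and the cell cycle and histone list 1 of 29 and 1.26.

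Of the 8 members of the homeobox, transcription factor, Wnt and FGF, EGF and Eph lists, 4 were localized by the rule that follows. To describe place, stage-7 nuclei were grouped into 11 clusters by their expression of genes outside the set, and late stage-5 nuclei likewise into 14. A gene was counted as localized when its level in its highest cluster was at least 4 times that over all nuclei. This held for 28 of the 150 genes (18.7%), against 8.5% of all genes tested. Of the others, 25 reached between 2 and 4 times and 97 less than 2 times. The ratio did not use the clusters. Among the 63 genes with a level below 1, 26 were localized, against 609 of the 6581 other genes tested at such a level. Among the 35 abundant genes 0 were, against 2 of the 112 others with a level of 10 or more.

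**Figure D2:**
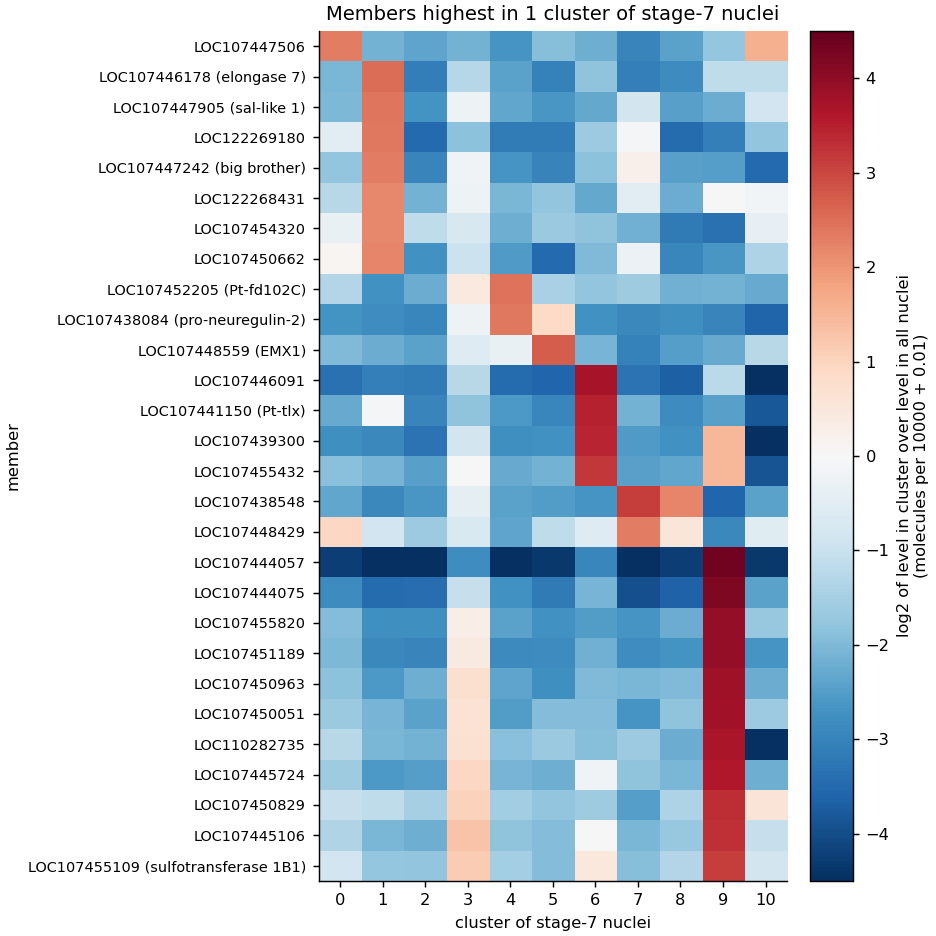
Level of each of the 28 localized genes in each of the 11 stage-7 clusters relative to its level over all stage-7 nuclei (log2 scale). Clusters 9, 1 and 6 hold 11, 7 and 4 of the highest values, and clusters 2, 3, 8 and 10 hold none.

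Cluster 9 (238 nuclei, 3.81% of all) was the highest cluster of 11 of the 28 genes (39.3%), a smaller share than the 79.8% over all localized genes tested, 592 of 742. Its markers of endoderm summed to 35.6 molecules per 10000, against 5.32 over all stage-7 nuclei, with 23.0 for *LOC107451427* alone. *LOC107444057* had 19.5 (19.0 to 20.0) in cluster 9 against 0.0477 in all other nuclei, and a molecule of it was found in 97.1% of the cluster's nuclei against 4.13% elsewhere. *LOC107451189* had the highest level there, 30.7 (30.1 to 31.3) against 0.568 elsewhere. Uncharacterized *LOC107445106* had 16.4 against 0.946, and *LOC107455820*, the gene with the seventh ratio of the set, had 4.33 (4.11 to 4.57) against 0.0734. Over all remaining nuclei together each of these genes stood below 1 molecule per 10000. Single clusters were higher, with *LOC107445106* at 4.11 in cluster 3 and 1.69 in cluster 6, and *LOC107451189* at 2.64 in cluster 3.

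At late stage 5 all 11 genes were highest in cluster 11 (208 nuclei), whose endoderm markers summed to 76.2 molecules per 10000. *LOC107451427* gave 41.2 of that sum, and the extraembryonic markers of the cluster summed to 42.3. *LOC107444057* had 284 of its 334 late stage-5 molecules there, at a level of 1.71 (1.52 to 1.92). *LOC107451189* had 768 of 832 and *LOC107445106* 616 of 664. Of the 592 genes tested that were localized in cluster 9 at stage 7, 432 (73.0%) were also highest in late stage-5 cluster 11. The 11 genes of the set were thus highest at both stages in a cluster where every endoderm marker exceeded its level over all nuclei. *LOC107451427*, which leads both sums, is not specific to endoderm. The only one with an informative product was a sulfotransferase of family 1B (*LOC107455109*), an enzyme that adds sulfate to small molecules.

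Cluster 6 (365 nuclei) was highest for 4 of the 28 genes and for 69 of the 742. Its extraembryonic and endoderm markers summed to 36.2 and 40.4 molecules per 10000. *LOC107443634* gave 26.1 of the endoderm sum, and *LOC107451427*, which is in both lists, stood at 11.1. *LOC107446091* had 6.33 (6.10 to 6.57) there against 0.0638 elsewhere. *LOC107439300*, itself one of the extraembryonic markers used, had 3.36 (3.20 to 3.54) against 0.0911. *Pt-tlx* (*LOC107441150*), a homeobox gene of the T-cell leukemia homeobox class, had 1.51 against 0.0315, and only 23.3% of the cluster's nuclei had a molecule of it. Its late stage-5 molecules, 37 in all, were spread, with 5 in the highest cluster.

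Cluster 1 (894 nuclei) was highest for 7 of the 28 genes and for 18 of the 742. Its markers of the opisthosoma, the posterior part of the body, and of the thorax summed to 20.0 and 17.3 molecules per 10000, both the highest of the 11 clusters. The thorax sum was nearly all *Pt-ftz*, at 16.6. *Pt-antp-A* was also higher there, at 0.438 against 0.0826 over all stage-7 nuclei. The other thorax markers were lower, *Pt-gas1* at 0.148 against 0.649, *Pt-scr-A* at 0.106 against 0.350 and *Pt-scr-B* at 0.0350 against 0.120. Big brother (*LOC107447242*), which in *Drosophila* is the partner of Runx transcription factors, had 4.77 (4.63 to 4.90) in the cluster against 0.322 elsewhere, and was found in 89.4% of its nuclei against 20.7%. Its highest late stage-5 level, 3.41 (2.60 to 4.39), was in the 25 nuclei of cluster 13, which held 60 of its 260 molecules. Sal-like protein 1 (*LOC107447905*), of the Spalt family of zinc finger factors, had 1.17 (1.10 to 1.24) against 0.0578, and only 11 molecules in the whole late stage-5 library. The fatty acid elongase 7 gene *LOC107446178* had 0.596 (0.548 to 0.647) against 0.0134, and 4 molecules at late stage 5. The lncRNA *LOC107450662*, next to *Pt-scr-A* in the RefSeq order, had 1.24 (1.17 to 1.31) against 0.104. Of these 4 genes, big brother alone had a level above 1 in any late stage-5 cluster.

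Cluster 4 (704 nuclei), with head markers at 9.39 molecules per 10000 and *Pt-six3-1* at 6.57, was highest for *Pt-fd102C* and pro-neuregulin-2. *Pt-fd102C* (*LOC107452205*), a fork head transcription factor, had 0.747 (0.689 to 0.809) there against 0.0469 elsewhere. Pro-neuregulin-2 (*LOC107438084*), whose vertebrate relatives are ligands of EGF family receptors, had 1.80 (1.71 to 1.90) against 0.138. Both were highest at late stage 5 in cluster 2, where *Pt-otd* stood at 23.3, although with 15 and 17 molecules. The homeobox gene EMX1 (*LOC107448559*) was highest in cluster 5, with 1.33 (1.25 to 1.42) against 0.0586, and this cluster had *Pt-otd* at 5.46. Of its 75 late stage-5 molecules 56 were in the same cluster 2. It lies next to a gene with the product EMX2.

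In the mesoderm-marked cluster 7 (363 nuclei, 9.17 molecules per 10000 of mesoderm markers) the highest gene was uncharacterized *LOC107438548*, with 3.88 (3.70 to 4.08) against 0.225 elsewhere. It also had 2.08 in cluster 8, whose mesoderm markers summed to 17.3. Of its 186 late stage-5 molecules 142 were in late stage-5 cluster 6, which had 17.6 of mesoderm markers. The fibroblast growth factor receptor *LOC107438841* gave 16.5 of that sum. In that cluster *Pt-twist* was at 1.06, against 0.0787 over all late stage-5 nuclei, but snail was at 0.0705, against 0.973. Its head markers summed to 10.7, and the mesoderm sum was higher in late stage-5 cluster 13, at 23.2. *LOC107448429* was the other localized gene of stage-7 cluster 7. The receptor also gave most of the mesoderm sums of stage-7 clusters 7 and 8, at 7.77 and 14.3. *Pt-twist* was at 1.32 and 2.97 in them, against 0.385 over all stage-7 nuclei. The mesoderm marker snail was low in clusters 7 and 8, at 0.0808 and 0.0478, against 0.447 over all stage-7 nuclei. The lncRNA *LOC107447506*, next to a gene with the product antennapedia, was highest in cluster 0 (1011 nuclei), with 0.563 (0.520 to 0.609) against 0.0175. Whether the counting used strand is not given in the sources used here, so reads of such neighbours may not be separate.

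The Wnt pathway members fell just below the limit for localized genes. *Pt-Notum* (*LOC107447606*), a secreted enzyme that removes the lipid of Wnt proteins and so inactivates them, had 1.07 (1.04 to 1.09) molecules per 10000 in stage-7 nuclei and 0.611 in cells, against 0.114 (0.102 to 0.128) in late stage-5 nuclei. It reached 3.81 times its overall level in cluster 0. *Pt-wnt16* (*LOC107457243*), a Wnt ligand, had 0.189 (0.179 to 0.199) at stage 7 against 0.0119 (0.00817 to 0.0169) at late stage 5, and reached 3.67 times in cluster 4. It had only 32 late stage-5 molecules, and 13 of them were in the 25 nuclei of cluster 13, which had 36.6 molecules per 10000 of *Pt-ets4*, a marker of the cumulus mesenchymal cells.

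The study placed nuclei along an axis at each stage, and the positions, 80 at each stage, were joined here into 8 stretches of 10. The stage-7 axis holds 1387 ectoderm nuclei from the anterior to the posterior end of the germ band. The late stage-5 axis follows the germ-disc radius, from its edge to its centre, and was drawn from ectoderm, mesoderm and extraembryonic nuclei, of which 1140 listed ones were used. A stretch of a given number is therefore not the same tissue at both stages, and levels by stretch are given for each stage on its own. Of the 150 genes, 10 (6.67%) had a stretch with at least 4 times their level over all axis nuclei, against 0.733% of all genes tested. Of the 10, 9 were also localized by cluster. Stretch 8, at the posterior end, was highest for 5 of the 10, a share like that over all genes tested, 34 of 64. A further 13 reached between 2 and 4 times. The set as a whole was nearly even along each axis, with 8.75% to 10.3% of the molecules of each stretch at stage 7 and 1.58% to 1.74% at late stage 5.

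**Figure D3:**
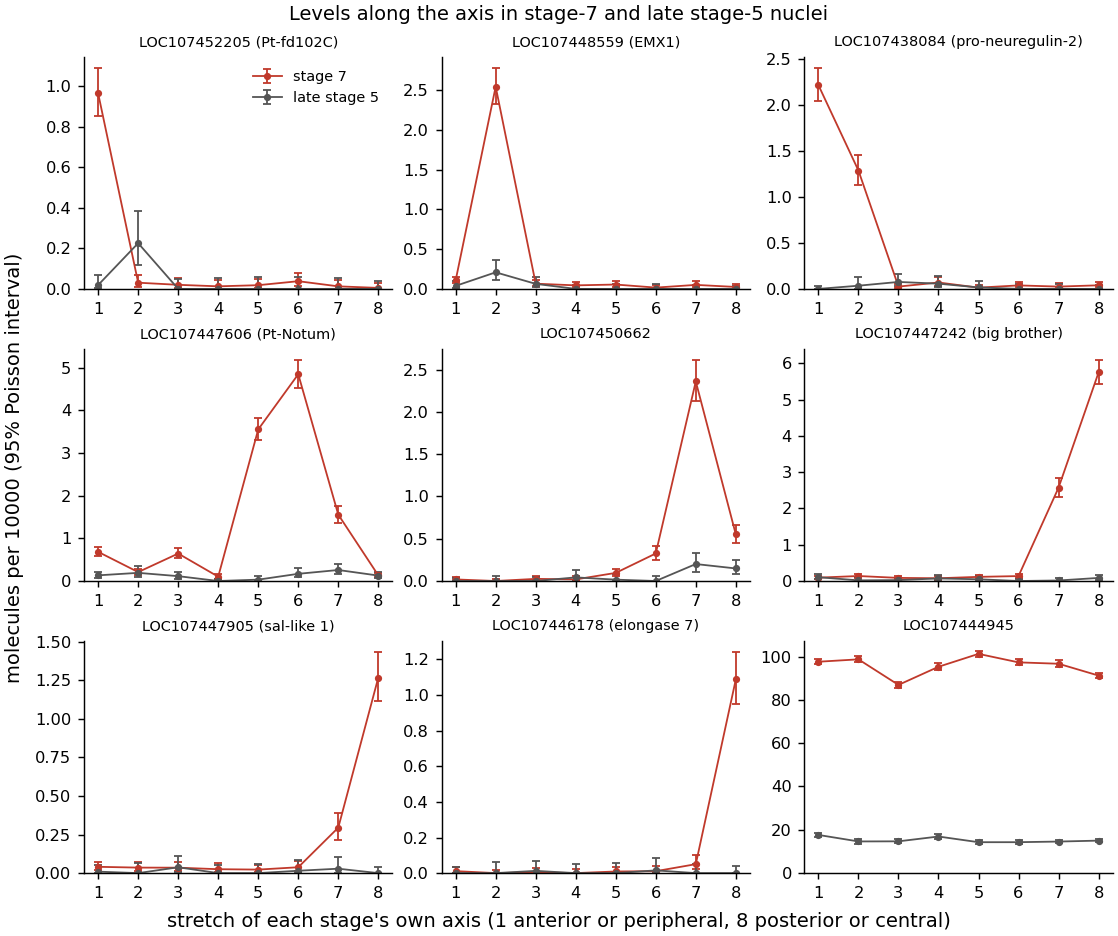
Level in molecules per 10000 of 9 of the genes in 8 stretches of the germ-band axis in stage-7 nuclei (red; 1, anterior, to 8, posterior) and of the germ-disc radius in late stage-5 nuclei (grey; 1, periphery, to 8, centre), with 95% Poisson intervals for counting error. The stretches of the 2 stages are not the same tissue. *Pt-fd102C* peaks in stretch 1, EMX1 in stretch 2, *Pt-Notum* in stretch 6 and big brother in stretch 8 at stage 7, whereas the abundant *LOC107444945* is high in all 8 stretches.

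At the anterior end *Pt-fd102C* had 0.965 (0.852 to 1.09) molecules per 10000 in stretch 1 at stage 7, 5.37 times its mean, and at most 0.0380 in the other 7 stretches. Its highest value on the late stage-5 axis was 0.226 (0.120 to 0.386), in stretch 2 of that axis. Pro-neuregulin-2 had 2.22 in stretch 1 and 1.29 in stretch 2, and at most 0.0696 elsewhere. EMX1 was highest in the next stretch, with 2.54 (2.33 to 2.78) in stretch 2 at stage 7 and at most 0.108 in the others. On the late stage-5 axis its highest value was 0.208 (0.108 to 0.364).

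In the middle of the axis the forkhead box protein B1-like gene *LOC107443349* was highest in stretches 3 and 4, with 0.327 and 0.418. *Pt-Notum* had 3.56 and 4.85 (4.54 to 5.18) in stretches 5 and 6 at stage 7 and 1.56 in stretch 7, with 0.101 in stretch 4, and lower values of 0.683 in stretch 1 and 0.644 in stretch 3. Along the late stage-5 axis its levels were at most 0.258 (0.153 to 0.407). The lncRNA *LOC107447506* was highest in the same stretches 5 and 6, with 0.237 and 0.293. The zinc finger and BTB domain-containing gene *LOC107444341* had 0.358 in stretch 6, 4.67 times its mean.

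At the posterior end the lncRNA *LOC107450662* had 2.36 (2.13 to 2.61) in stretch 7 at stage 7, and its highest value on the late stage-5 axis was 0.201 (0.110 to 0.336). Big brother had 2.57 in stretch 7 and 5.75 (5.43 to 6.09) in stretch 8, with at most 0.138 in the first 6 stretches, and at late stage 5 at most 0.104 in any stretch. Sal-like protein 1 had 1.27 (1.12 to 1.43) in stretch 8, and elongase 7 had 1.09 (0.949 to 1.24). The largest fold in stretch 8 was 7.24, for elongase 7, followed by *Pt-tlx* with 7.04 at a level of 0.434.

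*LOC107442497*, uncharacterized, was found at both ends and nearly nowhere between. It had 7.11 molecules per 10000 in stretch 1 and 9.93 in stretch 8 at stage 7, with at most 0.0913 in stretches 2 to 7. On the late stage-5 axis it had 3.06 in stretch 8, the centre of the disc, and at most 0.104 in the others. *Pt-wnt16* also had 2 ends, with 0.724 and 0.688 in stretches 1 and 2, 0.361 in stretch 8 and at most 0.0319 in stretches 3 to 5. For both genes a peak in 1 cluster understates the place, since 2 separate groups of nuclei had them.

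Away from the localized genes, the level of the set moved with the number of genes per nucleus. Cluster 3 (790 nuclei) had the fewest genes per nucleus, with a mean of 2649, held markers of several regions at low levels, and had 14.8% of its molecules in the 150 genes. Cluster 10 (48 nuclei) had a mean of 2994 genes and 14.1%. Cluster 9 had the most genes, with a mean of 4126, and 4.79%, and cluster 6 had 3900 and 7.81%. The other 7 clusters, with means of 3459 to 3609 genes, lay between 9.52% and 10.5%. At late stage 5 the highest value was likewise in the cluster with the fewest genes, cluster 9 with 2111 genes and 1.96%, and the lowest in cluster 11 with 3004 genes and 1.02%. The paper also found a cluster with few genes at each stage, without specific markers. It held that these were possibly pseudoclusters and left them out of its later analyses. Whether they hold the same nuclei as the clusters made here was not compared.

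Of the 150 genes, 101 (67.3%) were highest in cluster 3 or 10, against 25.4% of all genes tested, and 98 (65.3%) were lowest in cluster 9, against 30.2%. All 35 abundant genes were highest in cluster 3 or 10 and lowest in cluster 9. Of the 112 other genes tested with a level of 10 or more, 85 were highest in those clusters and 95 were lowest in cluster 9. The summed chaperone level also ran between 1.99 in cluster 9 and 5.89 in cluster 3. Without cluster 3 and late stage-5 cluster 9, the median ratio of the set was 6.01.

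**Figure D4:**
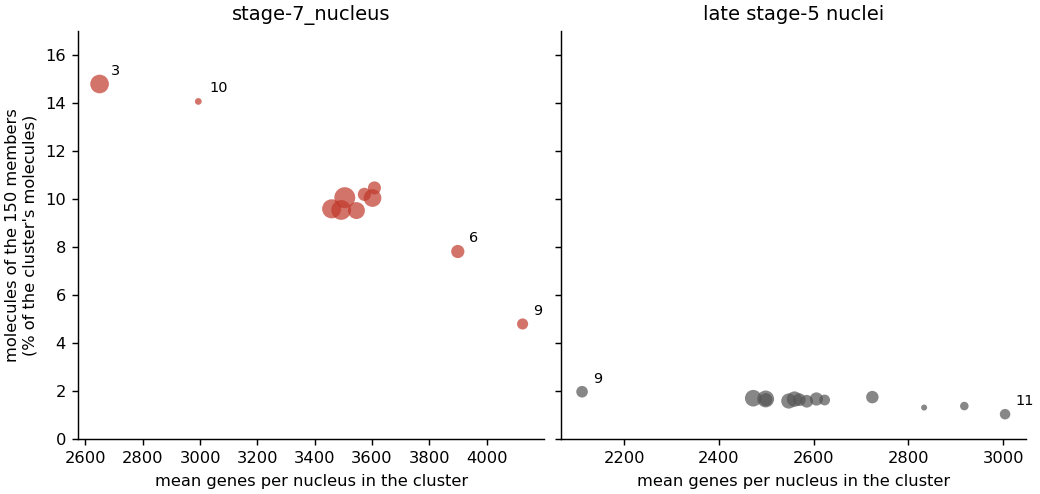
Percentage of the molecules of each cluster that belongs to the 150 genes (vertical axis) by the mean number of genes per nucleus (horizontal axis), for stage-7 and late stage-5 clusters, with the area of a point showing the number of nuclei. Clusters 3 and 10 at stage 7 stand at 14.8% and 14.1% with few genes, and cluster 9 at 4.79% with the most.

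The barcodes that the authors' limit on genes had removed showed the same direction. The 1030 stage-7 barcodes below the limit had 14.7% of their 4464142 molecules in the set, against 10.0% in the kept nuclei. At late stage 5 the 321 barcodes below the limit had 2.80%, against 1.61% in the kept nuclei. Of the 150 genes, 105 (70%) had a higher level in the removed than in the kept stage-7 barcodes, against 31.2% of all genes tested. With all barcodes before the filter, the median ratio of the set was 6.54. The limit on genes differed between the stages, more than 2000 at stage 7 and more than 1500 at late stage 5, and with more than 2000 at both the median was 6.30. The part of free RNA and of RNA quality in the levels was not tested.

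The stage-7 cells gave a second library at the same named stage, from other embryos and by another preparation. From stripes in stained siblings, the paper judged the embryos of the cell library to be slightly younger than those of the nucleus library. The stage-7 nucleus values that chose the genes are not used in a comparison of cells with late stage-5 nuclei, but the late stage-5 values are. With this limit, 119 of the 150 genes (79.3%) were at least 4 times higher in stage-7 cells than in late stage-5 nuclei, against 4.46% of all genes tested. Scaled so that the median gene had equal levels, these were 140 of the 150 and 1160 of the 8730. The annotation for nuclei also counted reads in introns, so cells and nuclei differ in processing as well. All 150 genes had a molecule in the cell table.

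Compared with stage-7 nuclei, 93 of the 150 genes (62.0%) were higher in stage-7 cells, against 21.9% of all genes tested. The median of the cell to nucleus ratio was 1.23 for the 150 genes and 0.614 for the other genes tested. Scaled so that the median gene had equal levels, 120 of the 150 and 4365 of the 8730 genes were higher in cells, so that the direction for single genes depends on the scaling. The gap between members and others was small among the most abundant genes and wider below. Among genes with 10 or more molecules per 10000, 33 of the 35 members and 91 of the 112 others were higher in cells, with medians of 1.55 and 1.46. Among those between 1 and 10, 36 of 52 members and 566 of 1887 others were higher in cells, with medians of 1.24 and 0.728. Below 1 it was 24 of 63 members and 1166 of 6581 others, with medians of 0.751 and 0.575. The largest gap for a chaperone was that of *LOC107447382*, with 3.17 (3.06 to 3.30) in cells against 0.524 in nuclei, and the lncRNA *LOC107457417* had 12.2 against 4.48.

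**Figure D5:**
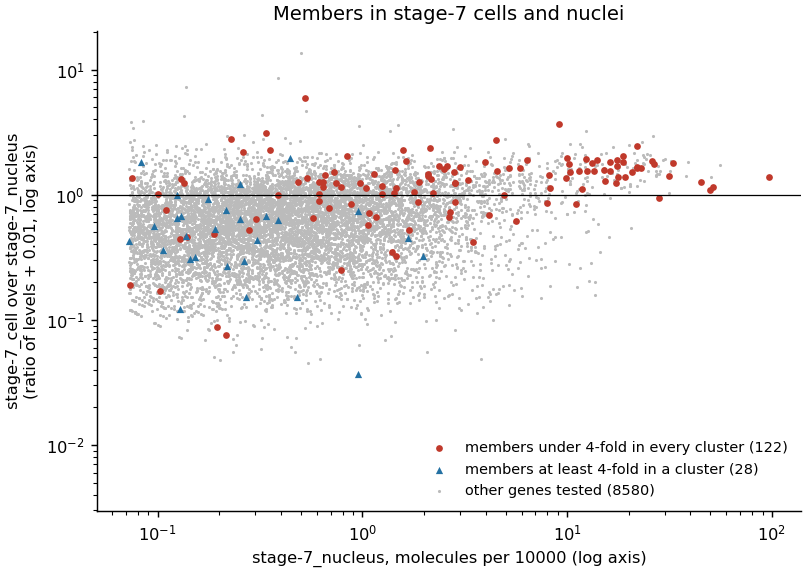
Ratio of the level in stage-7 cells to that in stage-7 nuclei, with 0.01 added to both (vertical axis), against the level in stage-7 nuclei in molecules per 10000 (horizontal axis), both on log axes. Red circles are the 122 members of the set that are not localized, blue triangles the 28 localized ones and grey points the other genes tested. Of the 150 genes 93 have the higher level in cells, and of the 28 localized genes 3 do, against 1916 of all 8730 genes tested.

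Most localized genes were lower in cells, with 3 of 28 higher and a median cell to nucleus ratio of 0.499. Their median level in stage-7 nuclei was low, 0.216. Among the other genes tested below 1, 1166 of 6581 were higher in cells, with a median of 0.575. Being lower in cells was thus shared with other genes of such a level. The 742 localized genes among all tested were not compared in this way. *LOC107444057* had 0.0255 (0.0160 to 0.0386) in cells against 0.951 in nuclei, and *Pt-tlx* had 6 molecules in all cells, a level of 0.00694 (0.00255 to 0.0151), against 0.129 in nuclei. The markers of the same clusters were also low in the cells. All 4 endoderm markers were lower in cells, with a summed level of 1.17 in stage-7 cells against 5.32 in stage-7 nuclei, and all 5 extraembryonic markers, 2 of them members of the set, with 1.15 against 6.13. Fewer cells of a type and less RNA per cell cannot be told apart in these sums. *LOC107438548* of cluster 7 was an exception, with 0.870 (0.809 to 0.935) in cells against 0.442 in nuclei.

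Position in the genome was compared by the RefSeq gene order alone. Of 141 genes with a place in it, 7 pairs were direct neighbours, among them the chaperone pair above and *LOC110283236* with *LOC107438254*. Such pairs were not counted over all genes tested, so their number is not shown to be a trait of the set. Direct neighbours with developmental products included, besides those named, a gene with the product Meis1 next to *LOC107450051* of cluster 9, and *Pt-ci* next to the mitochondrial ribosomal protein gene *LOC107442072*. These neighbours were looked for only among genes with a study name or a homeobox or homeotic product. How often other genes tested have such a neighbour was not counted. No sequences of these genes were used here.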

How the data were processed

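Whole embryos, of different egg sacs for cells and nuclei, were used for libraries of the BD Rhapsody system, and the submitters' processing notes name STAR 2.5.2b and Seurat 4.1.1. The authors deposited counts of molecules per gene and barcode before and after their filter, with intronic reads counted for nuclei. Log values they also deposited were not used. Their filter kept stage-7 nuclei with more than 2000 genes and late stage-5 nuclei with more than 1500, and doublets were treated only by its upper limit on molecules. The late stage-5 table names no sample of this series. The total molecules per library set the precision.

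From the counts, levels were molecules per 10000, summed over barcodes. Each nucleus was thinned to 2000 molecules for percentages, and no nucleus was left out. Clusters were made with Seurat 5.3.0 in R 4.3.3 (Matrix 1.6.5), with 2000 variable features without the 150 genes, 50 components and resolution 0.5 at stage 7, and 45 and 1.4 at late stage 5. Marker genes were those of the study. Other steps used Python 3.11.15, numpy 2.4.6, scipy 1.17.1, pandas 2.3.3 and matplotlib 3.10.9, and were tested on simulated data. With 1 library per stage no test was made. Folds for clusters and stretches are plain ratios of levels, and the plot of clusters adds 0.01 to both. The genes and gene lists were chosen with earlier results of these data known. Genes are named by a rule: the 15 highest ratios, the 5 highest levels in nuclei and in cells, those with a study name, up to 4 per list, 5 on each side of the limit and up to 3 per cluster and stretch. Others named, *LOC107442497* among them, were chosen after their values were seen. Offsets, minimum, scaling, barcodes, clusters, thinning and stretch length were varied. Gene symbols and order came from RefSeq, of another assembly, so no coordinates are given.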

Additional observations from a re-analysis of the deposited data

How the results depend on the processing

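No paired analysis was possible because each stage has 1 library of nuclei and no replicate numbers are shared. Of 38 alternatives, 33 stayed within the bounds set for them. For a count these were 1.5 times. For the median ratio they were the medians of the genes' separate lower and upper counting bounds (5.68 to 7.05). This is a typical interval of a single gene and not an interval of the median. With an offset of 0.1 in place of 0.01, the median ratio was 4.92, 97 genes stayed among the 150 highest and 94 had a ratio of 4 or more, of 131 among all genes tested. A larger offset lowers the ratio of low genes by construction. Scaling so that the median gene has a ratio of 1 gave a median of 8.17. With stretches of 5 positions, 17 genes in place of 10 had a stretch at 4 times, of 121 among all genes tested. Limiting late stage-5 nuclei to the 4091 with more than 2000 genes, chosen after seeing the data, gave 6.30 and left 147 among the 150 highest. A late stage-5 count under 50, as for 29 genes, limits the precision of a ratio.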
